A study of Mus musculus with 24 samples.

Results

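The genes described here are 10 members of the Nodal, Lefty and BMP-Id signalling network: Nodal, Lefty1, Lefty2, Tdgf1, Gdf3, Bmp4, Id1, Id2, Id3 and Smad7. They were taken by symbol from a table of 54242 genes, and all 10 were found. All 10 passed the filter on low values that left 16447 genes for testing, so no member was lost. RNA-seq was done on 24 libraries of CGR8 cells, a mouse embryonic stem cell (ESC) line, in 8 groups of 3. At day 0 the cells grew in serum with LIF, which maintains self-renewal, and at day 4 they had received 10 nM retinoic acid (RA), which drives differentiation. On each day the cells had been transfected with a pool of non-targeting siRNAs (si-CTL) or a pool against Rsl24d1 (si-Rsl24d1), a factor of large ribosomal subunit biogenesis. Each of these was sampled without rescue or with rescue, in which doxycycline induced an ectopic Rsl24d1. The rescue construct was carried by a selected pool of 1 cell line, and the labels describe the cells without rescue as carrying an empty vector while the study's methods describe the same line without doxycycline. The labels give both 48 h and 72 h of siRNA treatment for day 0 cells, and the design text keeps LIF in the RA medium while the methods leave it out. These points could not be settled from the values.

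Nodal is a secreted TGF-beta family ligand that signals with the co-receptor Tdgf1 (Cripto) through activin receptors to Smad2 and Smad3. Lefty1 and Lefty2 are secreted Nodal antagonists that are themselves Nodal targets, so they form a feedback loop, and Gdf3 is a related ligand. Bmp4 signals through Smad1 and Smad5 and induces Id1, Id2 and Id3, which bind E proteins and hold back lineage factors. Smad7 is an inhibitory SMAD induced by both branches. In ESCs cultured with serum and LIF, BMP signals and Id proteins are known to support self-renewal, and Nodal pathway genes are active in undifferentiated cells.

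Levels are given as log2(TPM + 1), which scales each gene by transcript length and each library to the same sum, so that levels can be set side by side between genes. Rsl24d1 itself was checked first. At day 0 it stood at 7.22, 7.14 and 7.10 in si-CTL cells and at 5.23, 5.28 and 5.07 in si-Rsl24d1 cells, a difference of -1.95 ± 0.07 (SE). With rescue the si-Rsl24d1 libraries stood at 6.70, 6.60 and 6.94, and the values do not separate endogenous from ectopic transcripts. At day 4 the libraries labelled si-Rsl24d1 stood at 6.50, 6.61 and 6.65 and those labelled si-CTL at 6.60, 6.67 and 6.61, so the groups overlapped and the mRNA was not measurably lower. At day 4 "si-Rsl24d1" therefore means the label of the libraries. Markers of undifferentiated ESCs, among them Pou5f1, Sox2 and Nanog, were present in every group. Their summed level was 2420 to 2490 TPM in si-CTL cells and 1770 to 1820 TPM in si-Rsl24d1 cells at day 0, and 1560 to 1660 TPM in si-CTL cells at day 4. Because these are bulk samples, fewer cells of a type and less RNA per cell cannot be told apart.

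The members are spread over the genome (GRCm38, gencode vM21) except for Lefty1 and Lefty2, which are neighbours. Nodal is at chr10:61417972-61425338, Tdgf1 at chr9:110939603-110946158, Gdf3 at chr6:122605403-122610087 and Bmp4 at chr14:46383520-46390669. Id1 is at chr2:152736251-152737410, Id2 at chr12:25093799-25097140 and Id3 at chr4:136143497-136145755. Lefty2 at chr1:180893108-180899103 and Lefty1 at chr1:180935022-180938400 are 35.9 kb apart on the same strand. Of the 31-base words in the transcripts of Lefty1, 25.7% also occur in Lefty2, and 17.2% of those of Lefty2 occur in Lefty1. Reads in these stretches cannot be assigned by sequence alone, and the values of the pair are uncertain to that extent. Tdgf1 shares 12.5% of its words with the pseudogene Tdgf1-ps1, which has a row of its own. For Id1, Id3 and Smad7 no word was shared with another gene.

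RefSeq promoter windows (GRCm38.p6, 250 bases before to 50 after the start) were matched by symbol for 5 of the 10 members, Nodal, Tdgf1, Bmp4, Id2 and Id3. For Nodal, Tdgf1 and Bmp4 the RefSeq start is that of the gencode span given above. The windows of Id2 and Id3 lie wholly inside their gencode spans, so for these genes the starts differ. The windows of Nodal and Bmp4 are printed because these genes moved in opposite directions after Rsl24d1 depletion. Those of Id2 and Id3 are printed because these genes fell together by day 4. Each is printed 5′ to 3′ on the strand of its gene, with capitals marking matches to the words GGCGCC, a BMP-responsive SMAD word, and CAGAC, a longer form of the SMAD-binding box, on both strands. A word with which FOXH1, the nuclear partner of Smad2, binds DNA (TGTGGAT) was also searched, and none of the 3 words overlaps another in these windows.
Nodal, chr10:61417722-61418021, plus strand: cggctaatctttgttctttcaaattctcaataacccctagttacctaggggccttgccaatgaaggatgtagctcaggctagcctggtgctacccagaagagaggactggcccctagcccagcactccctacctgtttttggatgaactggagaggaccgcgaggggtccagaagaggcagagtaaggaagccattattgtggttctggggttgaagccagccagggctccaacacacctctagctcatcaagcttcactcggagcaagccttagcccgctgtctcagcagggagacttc
Bmp4, chr14:46390620-46390919, minus strand: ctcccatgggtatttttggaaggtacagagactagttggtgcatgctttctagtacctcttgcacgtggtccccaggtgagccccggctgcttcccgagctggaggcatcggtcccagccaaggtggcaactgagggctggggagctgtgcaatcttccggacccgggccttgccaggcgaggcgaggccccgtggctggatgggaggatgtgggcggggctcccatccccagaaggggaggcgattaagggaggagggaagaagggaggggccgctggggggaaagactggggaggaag
Id2, chr12:25096043-25096342, minus strand: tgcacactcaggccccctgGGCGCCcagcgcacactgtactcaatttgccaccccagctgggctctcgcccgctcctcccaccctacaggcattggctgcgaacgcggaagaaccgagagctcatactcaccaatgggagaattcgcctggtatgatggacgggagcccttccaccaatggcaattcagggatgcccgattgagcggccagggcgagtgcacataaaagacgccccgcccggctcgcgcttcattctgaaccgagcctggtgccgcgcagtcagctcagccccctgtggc
Id3, chr4:136143572-136143871, plus strand: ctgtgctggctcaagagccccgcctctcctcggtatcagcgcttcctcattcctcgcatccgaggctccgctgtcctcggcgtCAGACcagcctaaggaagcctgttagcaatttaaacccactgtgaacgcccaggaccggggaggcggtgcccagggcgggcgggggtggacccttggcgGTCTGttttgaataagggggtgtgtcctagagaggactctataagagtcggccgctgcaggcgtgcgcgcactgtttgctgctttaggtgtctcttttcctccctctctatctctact
The Id2 window held 1 GGCGCC, found in 11.9% of all 32851 windows, and the Id3 window held 2 CAGAC words, a word found in 49.6% of windows. The Nodal and Bmp4 windows held none of the 3 words, and TGTGGAT, found in 3.38% of windows, was in none of the 5. The Tdgf1 window held 1 CAGAC. These are matches of letters, not sites, and no match says only that these letters are not in this window.

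In self-renewing si-CTL cells Tdgf1 had the highest level of the 10 genes, at 9.33 ± 0.02 (SD, n = 3). It was followed by Lefty1 at 7.22 ± 0.06, Id1 at 6.98 ± 0.12 and Lefty2 at 6.96 ± 0.06. Gdf3 was at 6.14 ± 0.05, Id3 at 5.89 ± 0.06 and Id2 at 5.88 ± 0.09. Nodal at 5.21 ± 0.07, Bmp4 at 4.57 ± 0.08 and Smad7 at 3.99 ± 0.25 were the lowest. Nodal and Bmp4 were thus less abundant as mRNA than the co-receptor, the antagonists and the Id genes. The means of Id1 and Lefty2 and of Id2 and Id3 lay within 1 SD of each other.

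**Figure D1:**
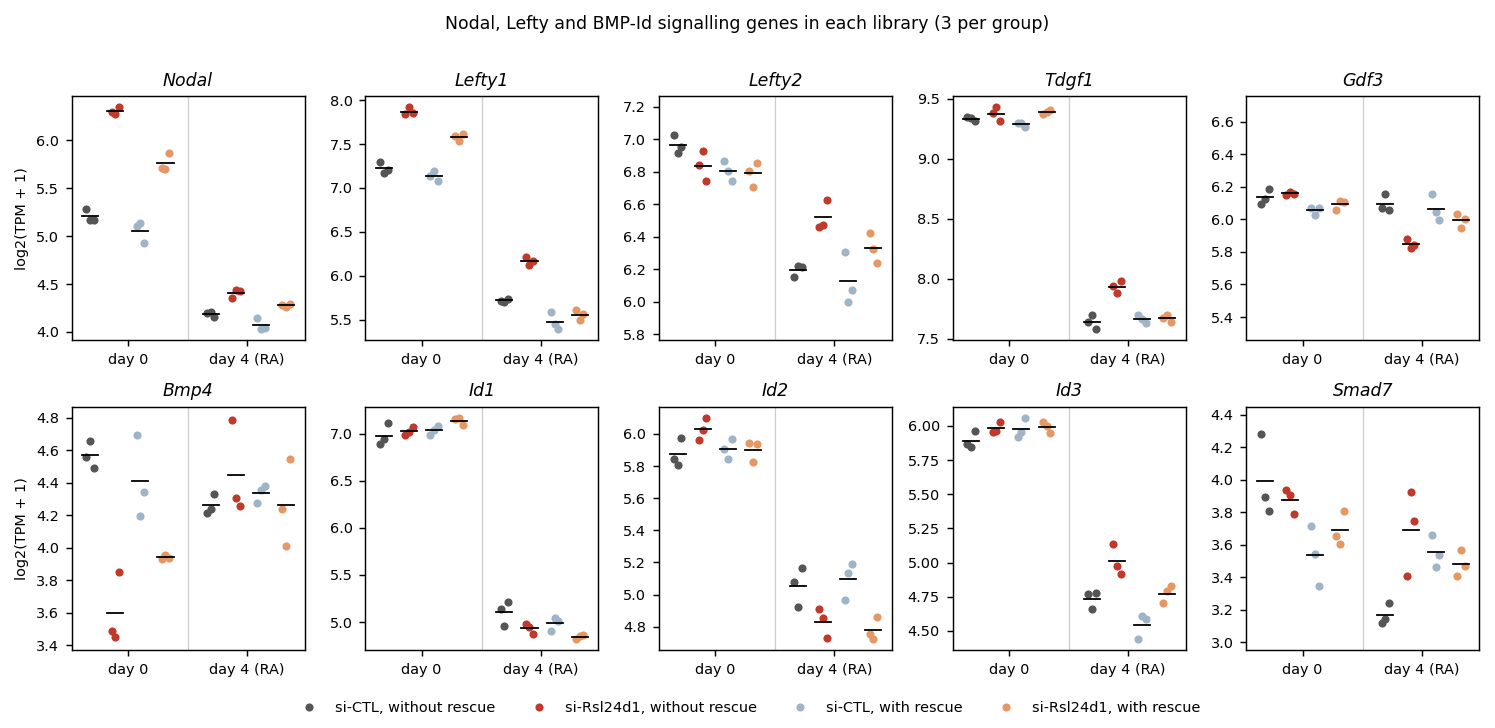
Level of each of the 10 genes in each library, as log2(TPM + 1) on the vertical axis, by day, siRNA and rescue (points, 3 libraries per group; bars, group means). Nodal and Lefty1 stand highest in si-Rsl24d1 cells at day 0 and lower in every group at day 4, Bmp4 is lowest in si-Rsl24d1 cells at day 0, and Gdf3 varies little.

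The first comparison asks which of these genes changed when Rsl24d1 was depleted in self-renewing cells. Nodal and Lefty1 rose and Bmp4 fell, while the other 7 genes did not pass the test. A gene is called here at an adjusted p below 0.01 (limma, Benjamini-Hochberg over 16447 genes) together with a log2(TPM + 1) difference beyond 0.848, which is 1.8-fold, and "rose" and "fell" are used of genes that passed the adjusted p. The 3 libraries of each group came from samples described as independent, and an exact permutation test of 3 against 3 could not go below p = 0.1 for any single gene. Of the 10 members 2 were called, beside 4.18% of all genes tested, and 3 passed the adjusted p alone, beside 30.4%. The median change was 0.04 over the members and -0.01 over all genes.

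Nodal was at 5.28, 5.17 and 5.16 in si-CTL cells and at 6.30, 6.27 and 6.35 in si-Rsl24d1 cells. Every depleted library was above every control library. The mean TPM went from 35.95 ± 1.75 to 78.17 ± 1.97 (SD, n = 3), and the difference was 1.10 ± 0.05 (SE; limma adjusted p = 3.8e-12).

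Lefty1, the antagonist induced by Nodal, was at 7.29, 7.17 and 7.20 in si-CTL cells and at 7.84, 7.92 and 7.86 in si-Rsl24d1 cells. These groups did not overlap either. The rise of 0.65 ± 0.05 passed the adjusted p (limma, 9.7e-10) but not the fold threshold. Its neighbour Lefty2 was at 7.03, 6.92 and 6.95 against 6.84, 6.93 and 6.74, and the groups overlapped. The difference of -0.13 ± 0.07 did not pass (limma adjusted p = 0.17), with a 95% confidence interval from -0.27 to 0.02. The level of Lefty1 therefore exceeded that of Lefty2 in the same library by 0.25 to 0.26 in si-CTL cells and by 0.99 to 1.11 in si-Rsl24d1 cells. Lefty1 exceeded Nodal by 2.00 to 2.04 in si-CTL cells and by 1.51 to 1.64 in si-Rsl24d1 cells.

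Bmp4 was at 4.56, 4.65 and 4.49 in si-CTL cells and at 3.49, 3.45 and 3.85 in si-Rsl24d1 cells. All depleted libraries were lower, 1 of them less so than the other two. The mean TPM went from 22.75 ± 1.36 to 11.22 ± 1.94, and Bmp4 fell by 0.97 ± 0.14 on the log2 scale (limma adjusted p = 1.8e-05).

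The Id genes, which BMP signals induce, did not follow Bmp4 past the test. Id1 differed by 0.04 ± 0.06, with a 95% interval from -0.08 to 0.17, and Id3 by 0.09 ± 0.06, with an interval from -0.03 to 0.22. Id2 was at 5.85, 5.80 and 5.97 against 5.96, 6.02 and 6.10, overlapping by a narrow margin, and its difference was 0.15 ± 0.07 (limma adjusted p = 0.089). The co-receptor Tdgf1 differed by 0.04 ± 0.03, with an interval from -0.03 to 0.11, and Gdf3 by 0.02 ± 0.04, with an interval from -0.06 to 0.11. For Smad7 the control library of replicate 1 was high at 4.28, beside 3.89 and 3.81, and the difference was -0.12 ± 0.12. Without that library the difference was 0.03. The row of Tdgf1-ps1 differed by 0.05 ± 0.05, close to Tdgf1.

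Summed marker levels differed with depletion too. Beside the lower sum of ESC markers given above, the summed level of a trophoblast list was 45.9 to 51.3 TPM in si-CTL and 66.5 to 72.3 in si-Rsl24d1 cells at day 0, and that of a primitive streak and mesoderm list 16.7 to 17.9 and 9.76 to 13.5. With rescue the ESC markers stood at 2240 to 2340 TPM in si-CTL and 1910 to 2020 in si-Rsl24d1 cells. In the same order the trophoblast list stood at 38.6 to 41.5 and 49.1 to 51.5 TPM. The primitive streak and mesoderm list stood at 12.7 to 16.9 and 9.32 to 10.3 TPM, so its sum was not brought back. A fibroblast list was at 37.7 to 47.1 TPM in si-CTL and 27.7 to 29.3 in si-Rsl24d1 cells without rescue. The sums do not show single genes. Without rescue 2 of 8 ESC markers were called lower and 0 higher, beside 4.18% of all genes in either direction. Called in either direction were 0 of 5 tested trophoblast, 0 of 4 primitive streak and mesoderm and 0 of 6 fibroblast genes. The part of these markers in the changes of Nodal, Lefty1 and Bmp4 was not tested.

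The second question was how far ectopic Rsl24d1 brought these genes back. With rescue, the si-Rsl24d1 libraries lay between the unrescued si-Rsl24d1 and the si-CTL libraries for Nodal, Lefty1 and Bmp4. Nodal was at 5.10, 5.14 and 4.93 in si-CTL cells with rescue and at 5.71, 5.70 and 5.87 in si-Rsl24d1 cells with rescue. The groups stayed apart. The difference of 0.70 ± 0.05 (limma adjusted p = 1.0e-08) was 64% of that without rescue. For Lefty1 the rescued pair stood at 7.14, 7.19 and 7.08 against 7.59, 7.54 and 7.62, a difference of 0.45 ± 0.05 (limma adjusted p = 6.4e-07) or 68.7% of that without rescue. For Bmp4 it stood at 4.70, 4.20 and 4.34 against 3.93, 3.95 and 3.94, a difference of -0.47 ± 0.14 that missed the threshold (limma adjusted p = 0.023) and was 48.8% of that without rescue. No member was called in this pair by limma, beside 1.36% of all genes, 2 passed the adjusted p alone, beside 13.7%, and 4 had an unadjusted p under 0.05. The share of all genes with an unadjusted p under 0.05 is not given, here or below, so these counts have no baseline.

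Within si-Rsl24d1 cells, Nodal fell by 0.54 ± 0.05 with rescue (limma adjusted p = 1.3e-06) and Lefty1 fell by 0.29 ± 0.05 (1.8e-04), and Bmp4 was 0.34 ± 0.14 higher (0.078). With median of ratios scaling Lefty1 was at -0.15 and did not pass (limma adjusted p = 0.03), and Nodal did. No member was called by limma, beside 0.280% of all genes, 2 passed the adjusted p, beside 15.3%, and 3 had an unadjusted p under 0.05. The median of all genes was -0.11 in this comparison and -0.12 in the same comparison of si-CTL cells, so a member at that value did not differ from the bulk of genes. These shifts went with transcript length, with a Spearman rho of -0.39 and -0.51 across 16123 genes, which are not independent replicates, and their part in the members' values was not tested beyond the alternatives given in the closing section. Whether the effect of the siRNA differed with rescue was tested as an interaction. It passed the adjusted p for Nodal at -0.40 ± 0.08 (limma, 0.0044) and not for Lefty1 at -0.20 ± 0.07 (0.085) or Bmp4 at 0.50 ± 0.20 (0.19). Nodal did not pass when only the 4 groups compared were fitted (limma, 0.042), nor when any of 8 of the 12 libraries was left out (0.012 to 0.017). In that test no member was called, beside 0.128% of all genes, 1 passed the adjusted p, beside 2.09%, and 3 had an unadjusted p under 0.05. These comparisons share groups and are not independent of each other.

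In si-CTL cells at day 0 no member passed the test between rescue and no rescue. Rsl24d1 mRNA itself differed by 0.10 ± 0.07 there (limma adjusted p = 0.29) and the libraries overlapped, so no rise of it was measurable. No member was called by limma, beside 0% of all genes, none passed the adjusted p, beside 0.0122%, and 3 had an unadjusted p under 0.05. Smad7 showed the greatest difference of the 10, at -0.46 ± 0.12 (limma adjusted p = 0.025), and its libraries stood at 4.28, 3.89 and 3.81 without and 3.72, 3.54 and 3.34 with rescue.

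**Figure D2:**
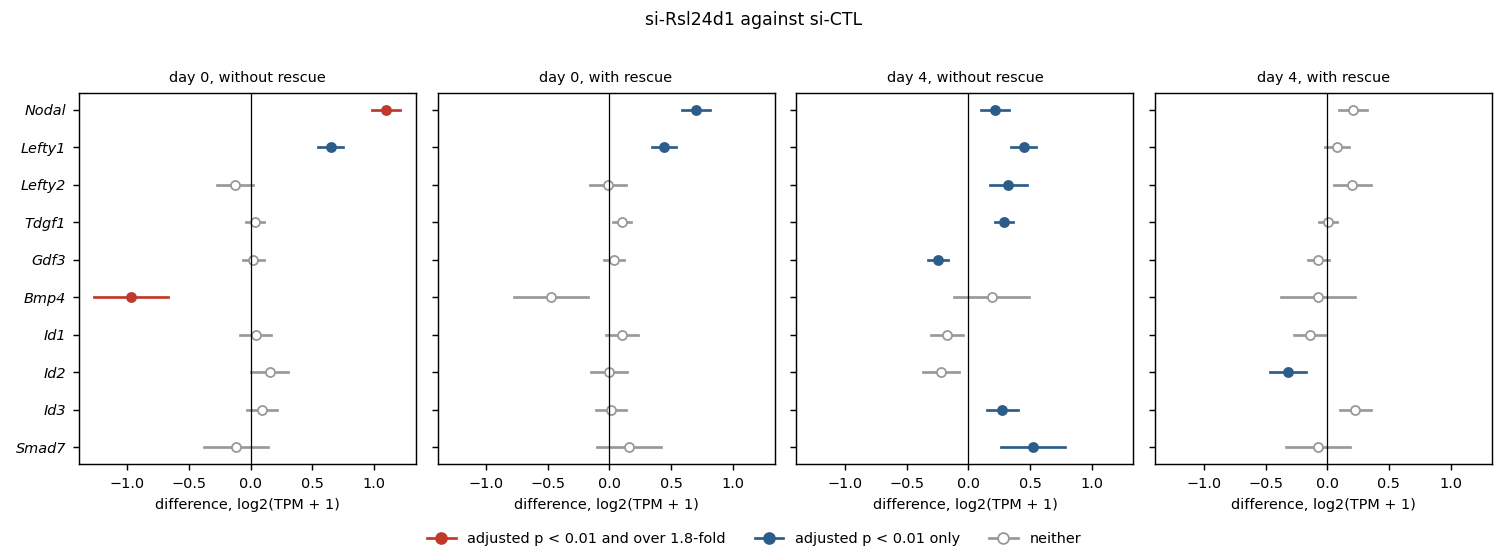
Difference in log2(TPM + 1) between si-Rsl24d1 and si-CTL (horizontal axis) for each gene, on each day without and with rescue (points, limma estimates; lines, 95% confidence intervals; 3 libraries per group). At day 0 Nodal lies at 1.10 without and 0.70 with rescue and Bmp4 at -0.97 and -0.47, whereas no gene passes the fold threshold at day 4.

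A list of 57 other genes of the Nodal-activin and BMP pathways was read by role, and 50 of them were tested. After Rsl24d1 depletion at day 0, 8 passed the adjusted p as higher and 5 as lower, beside 30.4% of all genes in either direction, and 3 were called, Bmp7, Inhbb and Fst, beside 4.18%. The median change was 0.09 over the 50 and -0.01 over all genes. Among ligands, Bmp7 was at 1.496, 1.485 and 1.494 in si-CTL cells and at 2.80, 2.72 and 2.79 in si-Rsl24d1 cells. All depleted libraries were higher, by 1.28 ± 0.07 (limma adjusted p = 2.0e-11), which is opposite to Bmp4. Inhbb, which encodes the beta-B subunit of activin and inhibin, was at 2.69, 2.65 and 2.62 against 1.601, 1.662 and 1.665. It fell by 1.01 ± 0.07 (limma adjusted p = 1.4e-09), opposite to Nodal. Fst, which encodes the activin-binding antagonist follistatin, was at 2.565, 2.854 and 2.704 against 3.51, 3.78 and 3.51, a rise of 0.90 ± 0.12 (4.9e-06). With rescue the difference was 0.76 for Bmp7, -0.35 for Inhbb and 0.27 for Fst, and the first 2 still passed the adjusted p.

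In the other roles no gene was called at day 0, beside 4.18% of all genes. The counts that follow passed the adjusted p, beside 30.4% of all genes. They are small, and roles were not tested against each other. Of the 4 tested Nodal-activin receptors 1 passed the adjusted p as higher, and of the 6 SMADs and nuclear partners 2 were higher and 1 lower. Of the 8 Nodal-activin targets and feedback genes 1 was higher and 1 lower. None of the 5 tested BMP antagonists and none of the 4 BMP receptors passed. Of the 4 tested BMP SMADs 1 was higher, and of the 6 BMP targets and Id partners 1 was higher and 2 were lower.

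**Figure D3:**
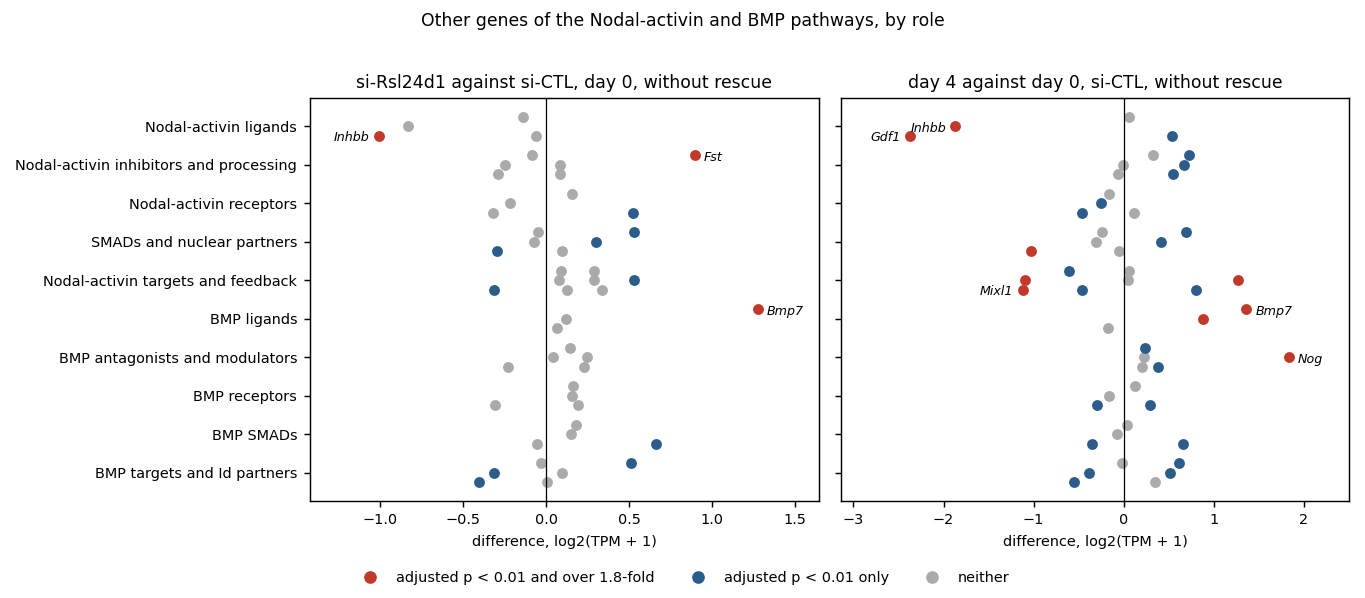
Difference in log2(TPM + 1) (horizontal axis) for the 50 tested other genes of the Nodal-activin and BMP pathways, grouped by role, for si-Rsl24d1 against si-CTL at day 0 (left) and for day 4 against day 0 in si-CTL cells (right), both without rescue (points, 1 gene each; vertical offsets within a role only separate points). Bmp7 lies far to the right in both panels, at 1.28 and 1.36, and Inhbb to the left in both, at -1.01 and -1.87.

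The third comparison sets day 4 of RA against day 0. No group without RA was sampled at day 4. RA therefore cannot be told apart from the days in culture or, where LIF was left out, from its absence. "Under RA" and "for RA" name this comparison of days. In si-CTL cells without rescue, Nodal, Lefty1, Tdgf1, Id1 and Id3 fell past both thresholds, and Lefty2, Id2 and Smad7 fell past the adjusted p alone. Gdf3 and Bmp4 did not pass. Thus 5 members were called, beside 15.0% of all genes, and 8 passed the adjusted p, beside 60.9%. The median change over all genes was -0.10.

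Id1 showed the largest fall of the 10 in this pair of groups. It was at 6.89, 6.94 and 7.11 at day 0 and at 5.14, 4.96 and 5.21 at day 4, and fell by 1.88 ± 0.06 (limma adjusted p = 1.6e-15). Id3 was at 5.87, 5.84 and 5.96 and then at 4.77, 4.66 and 4.77, a fall by 1.16 ± 0.06 (1.5e-12). For both genes the days were far apart. Id2 was at 5.85, 5.80 and 5.97 and then at 5.07, 4.92 and 5.16, and its fall by 0.82 ± 0.07 (3.3e-09) lay just under the fold threshold, which it passed when replicate 2 of day 0 or replicate 3 of day 4 was left out (-0.86 and -0.88).

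Tdgf1 was at 9.35, 9.34 and 9.32 at day 0 and at 7.64, 7.70 and 7.58 at day 4, and fell by 1.69 ± 0.03 (limma adjusted p = 4.0e-18). Its TPM at day 4 was 30.87% of that at day 0, and that of Tdgf1-ps1 was 32.79%. Nodal was at 4.20, 4.21 and 4.16 at day 4, lower than each day 0 library, and fell by 1.02 ± 0.05 (3.2e-12). Lefty1 was at 5.71, 5.70 and 5.74 and fell by 1.505 ± 0.05 (9.5e-16). Lefty2 was at 6.15, 6.22 and 6.21 and fell by 0.77 ± 0.07 (9.7e-09). The order of the pair turned over with the day. Lefty2 stood above Lefty1 in every library of day 4 and below it in every library of day 0, with a mean difference (Lefty1 minus Lefty2) of 0.26 at day 0 and -0.48 at day 4 in si-CTL cells.

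Smad7 was at 3.12, 3.14 and 3.24 at day 4 and fell by 0.83 ± 0.12 (limma adjusted p = 7.1e-06). Leaving out replicate 2 or 3 of day 0 or replicate 3 of day 4 took it past the fold threshold, at -0.88, -0.92 and -0.87. Gdf3 was at 6.07, 6.15 and 6.06, within the range of day 0 at 6.09, 6.13 and 6.19, and differed by -0.04 ± 0.04. Its interval from -0.12 to 0.04 keeps any change small next to the falls above. Bmp4 differed by -0.31 ± 0.14 (0.065), and its libraries did not overlap, at 4.49 to 4.65 at day 0 and 4.21 to 4.33 at day 4. When only the groups compared were fitted, Bmp4 passed (limma adjusted p = 0.0037).

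**Figure D4:**
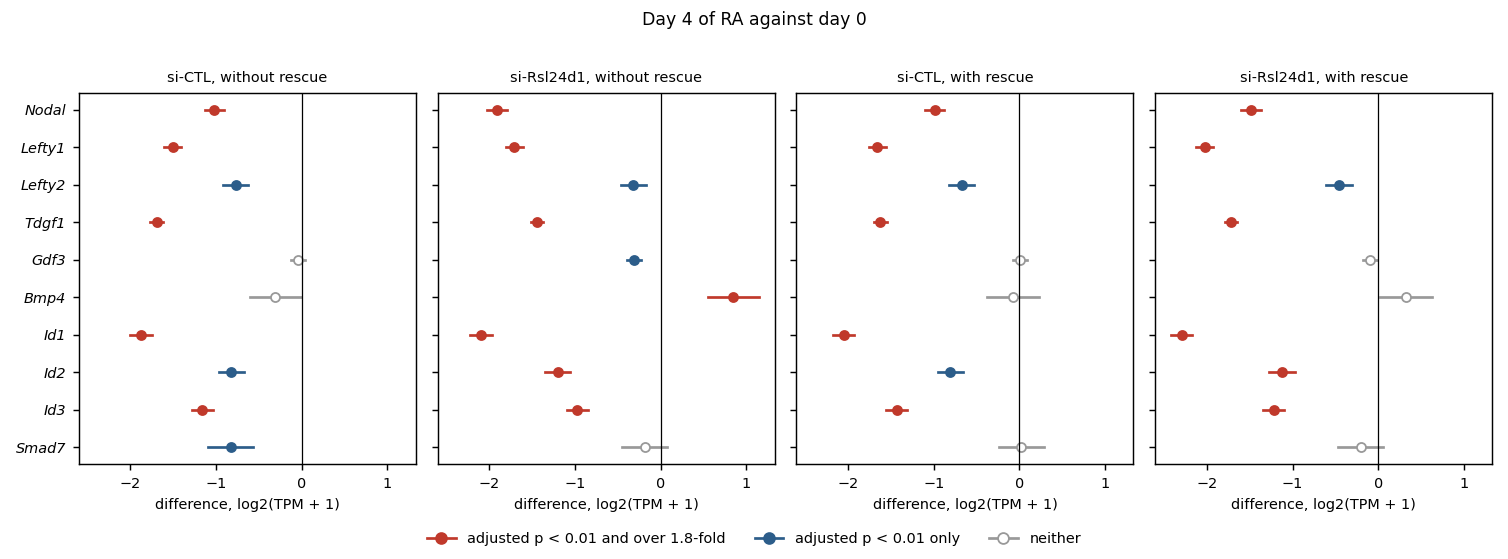
Difference in log2(TPM + 1) between day 4 of RA and day 0 (horizontal axis) for each gene, by siRNA and rescue (points, limma estimates; lines, 95% confidence intervals; 3 libraries per group). Nodal, Lefty1, Tdgf1, Id1 and Id3 lie to the left of 0 in all 4 panels, and Bmp4 lies at 0.85 in si-Rsl24d1 cells without rescue against -0.31 in si-CTL cells.

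In the other 3 kinds of cells 7 of these 8 genes passed the adjusted p as lower, Smad7 being the exception. Nodal, Lefty1, Tdgf1, Id1 and Id3 were called lower in each of them, and Id2 was also called lower in both kinds of si-Rsl24d1 cells. In si-Rsl24d1 cells without rescue 7 members were called, beside 14.1% of all genes, and 9 passed the adjusted p, beside 55.8%. In si-CTL cells with rescue 5 were called, beside 15.6%, and 7 passed the adjusted p, beside 59.2%. In si-Rsl24d1 cells with rescue 6 were called, beside 14.9%, and 7 passed the adjusted p, beside 58.1%. Nodal fell by 1.90 ± 0.05 in si-Rsl24d1 cells without rescue, from the raised day 0 level to 4.35, 4.43 and 4.42, and by 1.48 ± 0.05 with rescue. Id1 fell by 2.09, 2.05 and 2.30 in the 3 kinds of cells in the order given above. Smad7 did not pass in any of them, with differences of -0.18, 0.02 and -0.21, each ± 0.12. After an adjustment for transcript length Smad7 did pass in si-Rsl24d1 cells with rescue (-0.30; limma adjusted p = 0.0036). Gdf3 fell by 0.31 ± 0.04 in si-Rsl24d1 cells without rescue (limma adjusted p = 9.1e-07), from 6.15, 6.17 and 6.16 to 5.88, 5.82 and 5.84, and did not pass in either kind of rescued cells, except in si-Rsl24d1 cells with median of ratios scaling (-0.18; 0.0071).

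Bmp4 was the one member that rose in any of these comparisons of days. In si-Rsl24d1 cells without rescue it went from 3.49, 3.45 and 3.85 at day 0 to 4.78, 4.31 and 4.26 at day 4, with no overlap, and rose by 0.85 ± 0.14 (limma adjusted p = 3.3e-05). That lies at the fold threshold. It was 0.68 without replicate 1 of day 4, the highest library, and 0.80 and 0.78 without replicate 1 or 2 of day 0. At day 4 all 4 groups overlapped, with means between 4.26 and 4.45, so that the day 0 si-Rsl24d1 cells, without and with rescue, were the groups that stood apart.

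Markers of other cell types moved with the day. The summed level of a fibroblast list (6 genes, Col1a1, Col1a2, Col3a1, Thy1, Postn and Dcn) was 37.7 to 47.1 TPM in si-CTL cells at day 0, 106 to 115 at day 4 and 209 to 279 in libraries labelled si-Rsl24d1 at day 4. That of a primitive endoderm list (8 genes, 5 of them tested) was 4.66 to 6.3, 15.2 to 19.9 and 30.5 to 38.6 TPM in the same groups. In si-CTL cells a primitive streak and mesoderm list (6 genes, 4 tested) was at 16.7 to 17.9 TPM at day 0 and at 3.24 to 4.12 at day 4, and a trophoblast list (6 genes, 5 tested) was at 45.9 to 51.3 and then 62.4 to 66.3 TPM. An RA response list (5 genes, 4 tested) was at 6.18 to 6.99 TPM at day 0 and at 20.8 to 25.5 at day 4. The sums do not show single genes. Between day 0 and day 4 in si-CTL cells 4 of the 6 fibroblast genes were called higher and 1 lower, beside 15.0% of all genes in either direction. Called higher were 2 of 5 primitive endoderm, 2 of 5 trophoblast and 2 of 4 RA response genes, and 0 lower. In the primitive streak and mesoderm list 2 of 4 were called lower and 0 higher. No gene of these lists was at 0 in all 3 libraries of any group. Their part in the changes of the members with the day was not tested.

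Of the other pathway genes, 4 were called higher and 5 lower at day 4 than at day 0 in si-CTL cells, beside 15.0% of all genes called in either direction. The adjusted p alone was passed by 17 as higher and 13 as lower, beside 60.9% of all genes. Gdf1, Inhbb, Nog, Bmp7 and Mixl1 were among the largest changes. Inhbb fell by 1.87 ± 0.07, to 0.77, 0.84 and 0.74, and Mixl1, a target of Nodal in the primitive streak, fell by 1.123 ± 0.08, to 0.08, 0.00 and 0.16. Gdf1, a partner ligand of Nodal, fell by 2.38 ± 0.26. It shares a transcription unit with Cers1 and its value is uncertain for that reason. Nog, which encodes the BMP antagonist noggin, was at 1.59, 1.66 and 1.49 and then at 3.39, 3.26 and 3.58, and rose by 1.83 ± 0.10 (limma adjusted p = 8.2e-12). Bmp7 rose by 1.36 ± 0.07.

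The last comparison sets the siRNA groups side by side at day 4, where Rsl24d1 mRNA did not differ between them. No member was called by limma, beside 1.63% of all genes, and 7 passed the adjusted p, beside 30.9%. An unadjusted p under 0.05 was found for 9, a count without the share of all genes beside it. Of the 7, the 6 higher ones were Nodal, Lefty1, Lefty2, Tdgf1, Id3 and Smad7, and Gdf3 was lower. When only the groups compared were fitted, Lefty1 alone passed, and the other 6 had adjusted p between 0.011 and 0.034 (limma). When each of the 6 libraries was left out in turn, Nodal did not pass in 4 cases, Smad7 in 3 and Lefty2 in 1, with adjusted p up to 0.021. The median over all genes was 0.13 in this comparison and rose with transcript length, from 0.02 among genes with transcripts below the median length to 0.23 among those above it (Spearman rho 0.44 across 16123 genes), so the small rises have to be read against it. With median of ratios scaling 2 members were higher, Lefty1 at 0.28 and Smad7 at 0.37, and 3 were lower, Gdf3 at -0.41, Id1 at -0.34 and Id2 at -0.39.

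Lefty1 was at 6.21, 6.12 and 6.17 in libraries labelled si-Rsl24d1 and at 5.71, 5.70 and 5.74 in si-CTL, with a clear gap and a difference of 0.45 ± 0.05 (limma adjusted p = 7.3e-07). Smad7 was at 3.41, 3.93 and 3.75 against 3.12, 3.14 and 3.24, a difference of 0.53 ± 0.12 (0.0022). Gdf3 was at 5.88, 5.82 and 5.84 against 6.07, 6.15 and 6.06, the only group in which it left the range of the others, and fell by 0.25 ± 0.04 (9.1e-05). Nodal differed by 0.21 ± 0.05 (0.0039), and by 0.05 with median of ratios scaling, where it did not pass (0.3).

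With rescue on both sides at day 4, Id2 passed the adjusted p, at -0.32 ± 0.07 (limma, 0.0049), and the other 9 did not. Id2 did not pass without the filter on low values (an adjusted p that rounds to 0.01 from above), with only the groups compared (0.031), with median of ratios scaling (0.035) or with the length adjustment (0.013), nor when any of 4 of the 6 libraries was left out (0.021 to 0.033). With scaling Nodal and Lefty2 passed instead, and with the length adjustment Nodal, Lefty2 and Id3 did. No member was called by limma, beside 0.730% of all genes, 1 passed the adjusted p, beside 5.87%, and 5 had an unadjusted p under 0.05. Between libraries labelled si-Rsl24d1 with and without rescue, Lefty1 was at 5.61, 5.50 and 5.56 against 6.21, 6.12 and 6.17 and fell by 0.61 ± 0.05 (limma adjusted p = 2.5e-07), and Tdgf1 fell by 0.27 ± 0.03 (6.9e-05). Neither passed when only the groups compared were fitted (limma, 0.011 and 0.041), and Tdgf1 did not with median of ratios scaling (0.017). No member was called there by limma, beside 0.0851%, 2 passed the adjusted p, beside 5.17%, and 6 had an unadjusted p under 0.05.

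Among the 50 other pathway genes, 26 passed the adjusted p as higher and 2 as lower at day 4, beside 30.9% of all genes in either direction, and 0 were called, beside 1.63%. The median was 0.30 over the list and 0.13 over all genes. With median of ratios scaling 18 were higher and 4 lower with a median of 0.16, and after an adjustment for transcript length 14 were higher and 5 lower with a median of 0.10.

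Whether the effect of the siRNA differed between the days was tested as an interaction, day 4 minus day 0. It was called for Nodal at -0.89 ± 0.08 (limma adjusted p = 3.3e-08) and for Bmp4 at 1.16 ± 0.20 (1.6e-04), so 2 members, beside 5.61% of all genes. Nodal rose by 1.10 at day 0 and by 0.21 at day 4, and Bmp4 differed by -0.97 and 0.19. In all 7 members passed the adjusted p, beside 30.9% of genes. For Lefty1 the effects of 0.65 and 0.45 differed by -0.20 ± 0.07 (0.019), which did not pass. For Bmp7 and Inhbb, outside the 10 genes, the interaction was -1.33 ± 0.10 and 1.26 ± 0.11 and was called for both.

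Across the 8 groups the levels of Nodal fell into one order in which each neighbour was apart from the next in all 3 libraries. It ran from si-Rsl24d1 (6.31), si-Rsl24d1 with rescue (5.76), si-CTL (5.21) and si-CTL with rescue (5.06) at day 0 to si-Rsl24d1 (4.40), si-Rsl24d1 with rescue (4.28), si-CTL (4.19) and si-CTL with rescue (4.07) at day 4. Not every step of this order was tested. The step with rescue did not pass in si-CTL cells at day 0 (limma adjusted p = 0.052) or si-Rsl24d1 cells at day 4 (0.16). With median of ratios scaling si-Rsl24d1 and si-CTL at day 4 differed by 0.05 and did not pass (0.3). For Lefty1 the day 0 order was the same with an overlap between the 2 si-CTL groups, and at day 4 the rescued si-Rsl24d1 libraries stood below si-CTL. For Lefty2 each of the 4 groups of day 0 overlapped the next in order. The si-CTL libraries without rescue (6.92 to 7.03) stood above those with rescue, in si-CTL (6.74 to 6.87) and si-Rsl24d1 cells (6.71 to 6.86). With all groups of a day pooled, the libraries of day 0 and day 4 did not overlap for Nodal, Lefty1, Lefty2, Tdgf1, Id1, Id2 and Id3, and did for Gdf3, Bmp4 and Smad7. The share of all genes without such overlap is not given, so this list has no baseline. In the comparisons of days, 55.8% to 60.9% of all genes passed the adjusted p, which is a different measure. Whether the separation by day is particular to these members was not tested.

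The tested genes most like 4 of the members over the 24 libraries were read by Pearson r, as a description, since the libraries share groups. For Nodal they were Bscl2, Gtse1 and Wscd1 (r = 0.993 for each). For Id1 they were Pim2 (0.995), Tmem54 and Tcf15 (0.994 each), and for Lefty2 Eif2d (0.973), Nfyc and Glyr1 (0.971 each). Bmp4 had no gene as near, with Nmral1 at 0.872, Gcat at 0.828 and Ndufaf1 at 0.826.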

How the data were processed

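RNA-seq was measured in 24 libraries, 3 for each of 8 groups read from the deposited labels. The authors ran Salmon on the reads, added transcripts up to genes and deposited log2(TPM + 1) in 1 table. The labels name STAR 2.7.8a, Salmon 1.4.0 and the human build GRCh38, whereas the study's methods name other versions, the mouse genome and a stranded total RNA kit where the labels give a poly-A kit. TPM sum to 1000000 in each library, so depth is unknown, no count model or counting interval is possible, and precision rests on 3 libraries per group.

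From these values, the 16447 of 54242 genes whose log2(TPM + 1) averaged 0.5 or more were fitted with limma 3.58.1 in R 4.3.3, with 8 group means, an intensity trend, two-sided tests and Benjamini-Hochberg adjustment within each of 13 comparisons. Genes were called at an adjusted p below 0.01 and over 1.8-fold, the study's thresholds. A fold on this scale understates changes of low genes. The fit was tested on simulated data. No library duplicated another (0 identical pairs). Replicate numbers were not used to pair samples in the main fit.

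The members, the pathway and marker lists and the comparisons were chosen with earlier results of these data known. The text names the 10 members, Rsl24d1, Tdgf1-ps1, up to 6 pathway genes per comparison with the largest called changes and no overlap of libraries, and 3 pattern neighbours for each of 4 members. Of the genes this rule selects, 1 is not reported here. In the day interaction, Bmp7 and Inhbb were chosen after their values were seen. Alternatives were 0.1 and 2 added to the TPM, other filters, a fit of only the groups compared, a replicate block, no intensity trend, no fold threshold, median of ratios scaling, each library left out and, added after seeing the data, an adjustment for transcript length.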

Additional observations from a re-analysis of the deposited data

Results flagged for a closer look

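The test of whether the effect of the siRNA differed between conditions passed the adjusted p of 0.01 (limma) in 8 cases, and each is given as a value without explanation. Between rescue and no rescue at day 0, the effect on Nodal differed by -0.40. Between day 4 and day 0 without rescue, the effect differed by -0.89 for Nodal, by 1.16 for Bmp4 and by 0.64 for Smad7. It differed by 0.45 for Lefty2, by 0.25 for Tdgf1, by -0.27 for Gdf3 and by -0.38 for Id2. At day 4 Rsl24d1 mRNA did not differ between the siRNA groups, and the median over all genes of this interaction was 0.14. With median of ratios scaling Tdgf1 was at 0.10 and did not pass (limma adjusted p = 0.26), and Lefty1, at -0.353, did. When only the 4 groups compared were fitted, Id2 and Smad7 did not pass for the day, and Nodal did not pass for the rescue. Without the filter on low values Id2 and Smad7 did not pass for the day either, nor did they when any of 6 or 7 of the 12 libraries, respectively, was left out.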

How the results depend on the processing

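Of 1300 values of single members under the alternatives, 1245 kept their direction and the call made on both thresholds together. On the adjusted p alone, 1131 of 1170 values kept their side, 24 lost it and 15 gained it, most of them in comparisons at day 4 or in the interaction with the day. When each library was left out, 860 of 900 kept it, 33 lost it and 7 gained it. Without the fold threshold the count of members went to 2 for si-Rsl24d1 against si-CTL with rescue and for rescue in si-Rsl24d1 cells at day 0, to 1 for the interaction with rescue, to 8 for RA in si-CTL cells, to 7 for si-Rsl24d1 against si-CTL at day 4, to 1 there with rescue, to 2 for rescue in si-Rsl24d1 cells at day 4, and to 7 for the interaction with the day. The rise of Bmp4 under RA in si-Rsl24d1 cells was under the fold threshold with 2 added to the TPM (0.80), median of ratios scaling (0.83) and the length adjustment (0.82). Id2 under RA in si-CTL cells with rescue passed it with scaling (-0.96) and the length adjustment (-0.87), as did Smad7 under RA in si-CTL cells with 0.1 added (-0.90).

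Signs that turned belonged to values that did not pass in either fit, and the cause was not tested. With median of ratios scaling these were Id3 at -0.0135 (si-Rsl24d1 against si-CTL, day 0, with rescue), Lefty2 at 0.0888, Gdf3 at 0.0697 and Id2 at 0.0082 (rescue in si-Rsl24d1 cells, day 0), Gdf3 at -0.0006 (interaction with rescue), Lefty1 at 0.0631, Tdgf1 at 0.1032 and Gdf3 at 0.0703 (rescue in si-CTL cells), Gdf3 at 0.0903 (RA, si-CTL), Gdf3 at -0.1421 and Smad7 at -0.1189 (RA, si-CTL with rescue) and Id2 at 0.0205 (rescue in si-Rsl24d1 cells, day 4). With the length adjustment they were, for rescue in si-Rsl24d1 cells, the interaction, rescue in si-CTL cells and RA in si-CTL cells, Lefty2 at 0.0209, Gdf3 at -0.0191, Tdgf1 at 0.0222, Gdf3 at 0.0021 and Gdf3 at 0.0116, and for RA in si-CTL cells with rescue and rescue in si-Rsl24d1 cells at day 4, Gdf3 at -0.0632, Smad7 at -0.1544 and Id2 at 0.0039.

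When each library was left out in turn, the members called stayed at 2 for si-Rsl24d1 against si-CTL at day 0 and for the interaction with the day, and at 6 for RA in rescued si-Rsl24d1 cells. They ranged from 5 to 7 for RA in si-CTL cells, from 6 to 7 in si-Rsl24d1 cells and from 5 to 6 in si-CTL cells with rescue, and were 0 in the other 7 comparisons. Of 900 single values, 867 kept direction and call and 24 uncalled ones changed sign, with the following lowest and highest values. For si-Rsl24d1 against si-CTL at day 0 these were Id1 (-0.0032 to 0.109) and Smad7 (-0.210 to 0.0260). For the same pair with rescue these were Lefty2 (-0.0454 to 0.0284), Id3 (-0.0151 to 0.0554) and Id2 (-0.0372 to 0.0341). For rescue in si-Rsl24d1 cells at day 0 these were Id3 (-0.0069 to 0.0325) and Tdgf1 (-0.0143 to 0.0405). For the interaction with rescue these were Gdf3 (-0.0142 to 0.0345) and Id1 (-0.0072 to 0.105). For rescue in si-CTL cells this was Id2 (-0.0046 to 0.0805). For RA in si-CTL cells with rescue these were Bmp4 (-0.182 to 0.0660), Gdf3 (-0.0372 to 0.0439) and Smad7 (-0.0735 to 0.112). For si-Rsl24d1 against si-CTL at day 4 with rescue these were Tdgf1 (-0.0118 to 0.0239) and Bmp4 (-0.214 to 0.0524). A replicate block changed 0 of 130 calls, and same-numbered libraries did not deviate together (mean correlation -0.02 over 84 pairs). The mean of 0.0087 over 168 other pairs is tied to that value by the centring on group means. These values do not show whether samples of one number were prepared together, and numbers were used as names only. With the block, 685 genes were called for si-Rsl24d1 against si-CTL at day 0, against 687 without it.

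Over all genes, calls moved by over 1.5 times for rescue in si-Rsl24d1 cells at day 0 (46 to 24 with scaling, 19 with the length adjustment, 25 with 2 added and 151 with 0.1 added) and si-Rsl24d1 against si-CTL at day 4 (268 to 166, 145, 158 and 601). With 0.1 added, 687 went to 1224, 224 to 460 and 21 to 32 at day 0, 14 to 41 for rescue at day 4, 2469 to 3796 and 2559 to 3884 under RA in si-CTL cells without and with rescue, and 922 to 1452 for the day interaction. With 2 added, 21 went to 12, 120 to 78 and 14 to 8. Without the fold threshold every count rose. Depth is unknown, so what it limits could not be given.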
